A study of Mus musculus with 6 samples.

Results

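The nuclear genes that encode the subunits of the mitochondrial respiratory chain and ATP synthase were compared between epithelium and mesenchyme of the mouse small intestine at E18.5, shortly before birth. Members were the genes whose platform symbol begins with Nduf followed by a subunit letter (a, b, c, s or v) and a number, with Sdha to Sdhd, with Uqcr, with Cox4 to Cox8 followed by a, b, c or a digit, or with Atp5, leaving out the Ndufaf assembly factors. This took 79 genes of 18161 measured, with 162 of the 45037 probe sets tested. They comprised 35 genes of complex I, 4 of complex II, 8 of complex III, 15 of complex IV and 17 of complex V. The tissue came from embryos of C57BL/6 females, with no transgene or treatment named in the labels. Whole small intestine was kept for 9 hours at 4 °C in a cell recovery solution, and the epithelium was shaken off the mesenchyme. Each array carried RNA from 1 pool of 3 embryos. From 6 pools per tissue, the submitters chose 3 by RT-PCR for low contamination with the other tissue, so both groups, epithelium (A, B and C) and mesenchyme (A, B and C), are selected pools.

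The respiratory chain passes electrons from NADH (through complex I) and from succinate (through complex II) to ubiquinone, then through complex III and cytochrome c to complex IV, which reduces oxygen. Complexes I, III and IV pump protons across the inner mitochondrial membrane, and complex V, the ATP synthase, uses the returning protons to make ATP. Most subunits are encoded in the nucleus, and several subunits of complex IV exist as widely expressed and tissue-restricted isoforms. In the gut, the absorptive epithelium uses mitochondrial ATP to drive active nutrient uptake. The mesenchyme holds fibroblasts, smooth muscle, vessels, nerves and blood cells, and its arrays therefore average over many cell types.

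Promoter sequences from RefSeq (GRCm38.p6) were found for 66 of the 79 genes. In each, a window of 300 bases (250 before and 50 after the annotated start of transcription) was searched on both strands for 2 short motifs. CGCATGCG, the core of the motif of nuclear respiratory factor 1 (NRF1), reads the same on both strands. CCGGAAG, or CTTCCGG on the other strand, is a motif of the ETS family, to which the GA-binding protein GABPA belongs. The NRF1 core lay in 8 of the 66 windows (12.1%), against 2.07% of all 27025 genes with a window in the RefSeq table. The ETS motif lay in 17 of the 66 (25.8%), against 9.93% of all genes. No match of one motif overlapped a match of the other. By complex, the ETS motif lay in 4 of 31 windows of complex I, 2 of 3 of complex II, 2 of 5 of complex III, 3 of 12 of complex IV and 6 of 15 of complex V. In the same order, the NRF1 core lay in 1 of 31, 0 of 3, 2 of 5, 1 of 12 and 4 of 15. The shares of complex I, 12.9% and 3.23%, were near those of all genes. A match is a description of the letters, not evidence of binding.

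The 120 bases before the start are shown for 5 genes, 5′ to 3′ on the strand of the gene, with the motif in capitals. Sdhd is shown because it had the largest difference in complex II. Cox6b1 with Cox6b2, and Cox7a1 with Cox7a2, are shown as isoform pairs whose members differed unequally between the tissues.
Sdhd: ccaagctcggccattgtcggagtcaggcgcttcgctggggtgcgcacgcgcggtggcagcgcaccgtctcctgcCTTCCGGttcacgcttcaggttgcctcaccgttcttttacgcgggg
Cox6b1: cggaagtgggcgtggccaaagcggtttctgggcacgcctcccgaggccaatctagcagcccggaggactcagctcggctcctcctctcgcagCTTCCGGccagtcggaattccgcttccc
Cox6b2: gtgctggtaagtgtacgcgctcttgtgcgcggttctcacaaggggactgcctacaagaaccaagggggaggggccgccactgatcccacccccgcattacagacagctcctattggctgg
Cox7a1: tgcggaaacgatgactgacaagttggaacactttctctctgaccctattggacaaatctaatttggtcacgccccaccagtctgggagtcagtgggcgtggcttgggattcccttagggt
Cox7a2: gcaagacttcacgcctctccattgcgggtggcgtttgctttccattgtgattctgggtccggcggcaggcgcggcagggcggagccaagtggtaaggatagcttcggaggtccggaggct
These lie at chr9:50603850-50603969 (minus strand) for Sdhd, chr7:30626115-30626234 (minus) for Cox6b1, chr7:4753095-4753214 (minus) for Cox6b2, chr7:30184051-30184170 (plus) for Cox7a1 and chr9:79759854-79759973 (minus) for Cox7a2. The ETS match began 46 bases before the start in Sdhd (position -46) and 28 bases before it in Cox6b1 (position -28). Neither motif was found in the stretches of Cox6b2, Cox7a1 and Cox7a2. Within each pair, the isoform with the narrower known expression had fewer CpG dinucleotides in the 250 bases before the start, with 8 in Cox6b2 against 14 in Cox6b1, and 4 in Cox7a1 against 14 in Cox7a2. Sdhd had 27.

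Of the 79 respiratory chain genes, 71 had a positive difference, but fewer passed a test, and most of those that passed did so below 2-fold. Differences are log2 values, epithelium minus mesenchyme, with limma's standard error over 3 arrays per tissue. A gene was called at an adjusted p under 0.05 with a log2 difference of at least 1, which is 2-fold. By this rule 13 of the 79 genes (16.5%) were higher in the epithelium, where 8.19% of all genes were, and 2 of 79 (2.53%) were higher in the mesenchyme, where 15.9% of all genes were. Without the fold minimum, 37 of 79 (46.8%) were higher in the epithelium against 13.8% of all genes, and 2 in the mesenchyme against 27.4%. The arrays of the 2 tissues did not overlap in 53 members on the epithelial side, against 16.0% of all genes, and in 2 on the mesenchymal side, against 30.5%. The median difference of the 79 genes was 0.53, with 6 genes below 0, while the median of all 18161 genes was -0.17. Among the 622 genes whose mean level reached the lower quartile of the members (11.99 on the log2 scale), the median was 0.10. At 2-fold, 119 of them (19.1%) were called in the epithelium, a larger share than the 16.5% of the members, and 49 (7.88%) in the mesenchyme. Without the fold minimum, 32.5% were higher in the epithelium and 18.6% in the mesenchyme. Over single probe sets, 22 of 162 were called in the epithelium (5.98% of all probe sets were) and 3 in the mesenchyme (15.5% were).

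**Figure D1:**
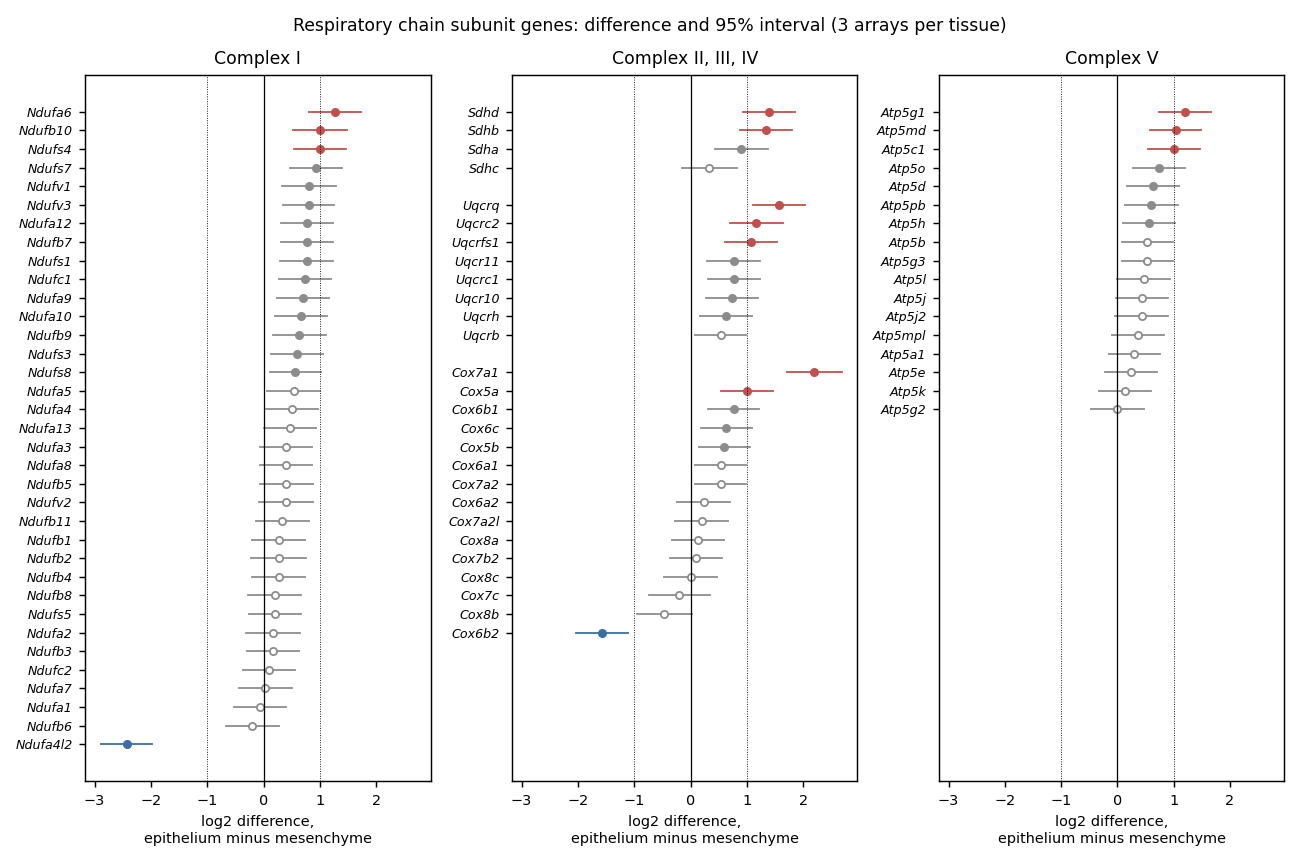
Log2 difference (epithelium minus mesenchyme, x axis) of each member gene with its 95% interval, by complex; red marks genes called 2-fold higher in epithelium, blue in mesenchyme, filled grey an adjusted p under 0.05 below 2-fold, open points neither. The 13 red genes are spread over all 5 complexes, and the 2 blue genes are Ndufa4l2 and Cox6b2.

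By array, the median level of the 79 genes was 12.7, 13.2 and 12.8 in epithelium A, B and C, and 12.4, 12.2 and 12.2 in mesenchyme A, B and C. The epithelial medians lay above the mesenchymal ones on every array. Epithelium B stood apart, since its level was the highest of the 3 epithelial arrays in 73 of the 79 genes. Its median over all probe sets was also higher, at 8.6 against 8.1 in A and 8.3 in C, while the mesenchymal arrays had medians of 8.7, 8.5 and 8.7. Without epithelium B, 7 of the 79 members were called in the epithelium in place of 13, where 6.97% of all genes were. The median difference was then 0.47. Mesenchyme B had hybridization spike-in controls that averaged 9.80 on the log2 scale, against 10.56 to 10.77 on the other 5 arrays. Without mesenchyme B, 8 of the 79 were called in the epithelium, where 7.77% of all genes were. The 2 genes higher in mesenchyme were called in both cases. The part of these arrays' brightness in the differences was not tested beyond these values.

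**Figure D2:**
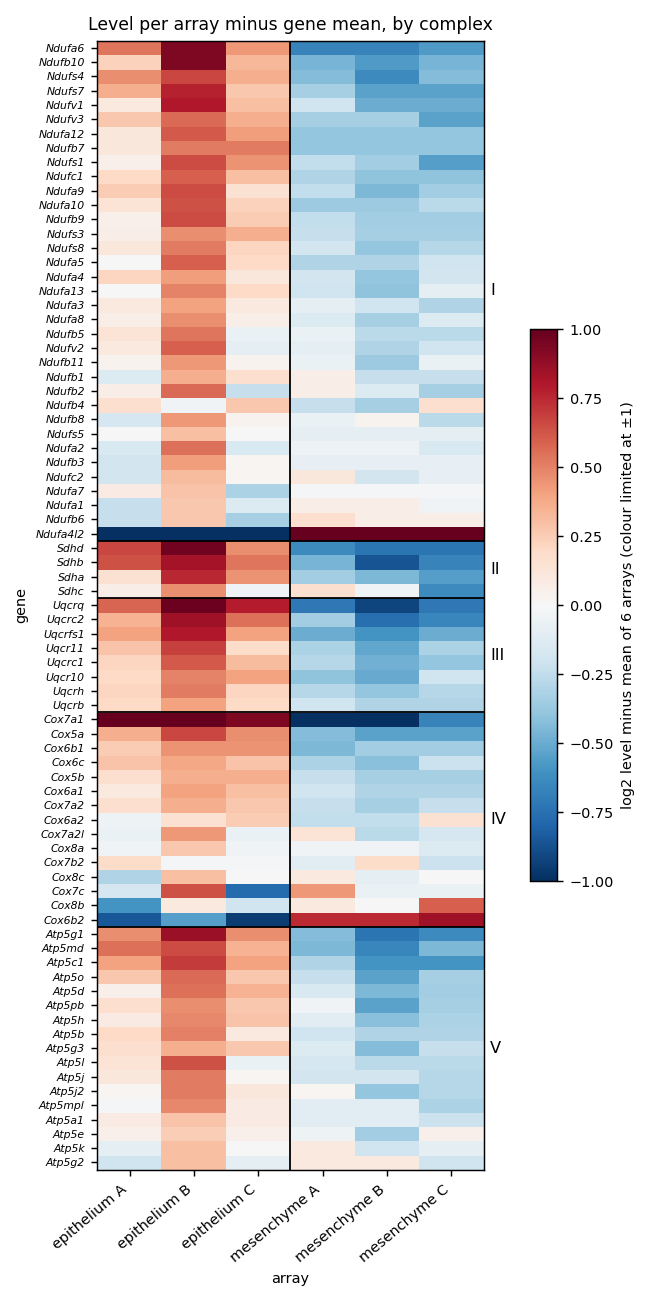
Level of each member gene (rows, by complex) in each array (columns) minus the gene's mean over the 6 arrays, as a log2 colour scale limited at ±1. The epithelial columns are mostly red and the mesenchymal ones mostly blue, epithelium B is the reddest column, and Ndufa4l2 and Cox6b2 run the other way.

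Complex II had the highest median difference of the 5 complexes, at 1.12 on the log2 scale over its 4 genes, of which 2 were called in the epithelium and none in the mesenchyme. The shares of all genes called were 8.19% and 15.9%. Sdhd, which encodes a membrane anchor of succinate dehydrogenase, had log2 levels of 13.4, 13.7 and 13.2 in the epithelium against 12.1, 12.0 and 12.0 in the mesenchyme, a difference of 1.40 ± 0.23 (adjusted p = 3.2e-06). Sdhb, the iron-sulfur subunit, had 13.5, 13.7 and 13.4 in the epithelium against 12.4, 12.0 and 12.2 in the mesenchyme, a difference of 1.33 ± 0.23 (adjusted p = 7.2e-06). For both genes every epithelial array lay at least 1 log2 unit above every mesenchymal array. Both were called under each of the 17 alternative settings run, although Sdhb has 1 probe set, so another choice of probe set could not change its difference.

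The catalytic flavoprotein Sdha had 12.9, 13.5 and 13.2 in the epithelium against 12.4, 12.3 and 12.2 in the mesenchyme. Its difference of 0.90 ± 0.23 (adjusted p = 0.0016) passed without the fold minimum but was not 2-fold, while another of its 4 probe sets differed by 1.33. The remaining ones were dim and differed by 0.90 and -0.10. The second anchor, Sdhc, had 12.2, 12.6 and 12.1 in the epithelium against 12.3, 12.1 and 11.5 in the mesenchyme, so the tissues overlapped. Its difference of 0.33 (95% interval -0.16 to 0.83) did not pass (adjusted p = 0.29), and its second probe set differed by 0.73 and passed without the fold minimum (adjusted p = 0.012). The p of a gene's further probe sets, here and below, is adjusted over all probe sets. Whether Sdhc differs less than the other 3 was not tested.

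In complex III, 7 of 8 genes passed without the fold minimum and 3 passed at 2-fold, in each case in the epithelium, with a median difference of 0.77. These shares, 87.5% and 37.5%, stand beside 13.8% and 8.19% of all genes. Uqcrc2, a core protein of the complex, had 12.8, 13.3 and 13.0 in the epithelium against 12.1, 11.7 and 11.8 in the mesenchyme, a difference of 1.17 ± 0.23 (adjusted p = 7.2e-05), and its second probe set differed by 1.53. Uqcrfs1, the Rieske iron-sulfur protein, had 13.0, 13.4 and 13.0 in the epithelium against 12.1, 12.0 and 12.1 in the mesenchyme, a difference of 1.07 ± 0.23 (adjusted p = 0.00019). The tissues did not overlap for either gene. Uqcrc2 fell below 2-fold with centring on the spike-in controls. Uqcrfs1 fell below 2-fold without epithelium B, at quantile normalization and at centring on the spike-in controls. With the spike-in centring it was 0.81 and did not pass (adjusted p = 0.071). Uqcr11, Uqcrc1, Uqcr10 and Uqcrh differed by 0.63 to 0.77, and Uqcrb by 0.53 (adjusted p = 0.055).

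The small subunit gene Uqcrq had the largest value of the complex but rests on 1 of its 4 probe sets. This probe set gave 13.1, 13.5 and 13.3 in the epithelium against 11.8, 11.6 and 11.8 in the mesenchyme, a difference of 1.57 ± 0.23 (adjusted p = 3.7e-07). The other 3 probe sets were dim, with mean levels of 8.40 to 8.77 in the epithelium, and differed by -0.17 to -0.43. With probe sets of the suffixes _x_at and _s_at avoided, which can match several transcripts, the difference of Uqcrq turned to -0.17. Its direction therefore depends on the probe set chosen. Cyc1, the cytochrome c1 gene of the same complex that the symbol rule does not take, differed by 0.97 ± 0.23 (adjusted p = 0.00058).

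Complex I had a median difference of 0.47 over 35 genes, with 15 higher in the epithelium without the fold minimum, 3 at 2-fold, and 1 higher in the mesenchyme under either rule. The share at 2-fold, 8.57%, is close to the 8.19% of all genes, while 42.9% passed without the fold minimum against 13.8%. Ndufa6, an accessory subunit, had 12.8, 13.2 and 12.7 in the epithelium against 11.6, 11.6 and 11.7 in the mesenchyme, a difference of 1.27 ± 0.23 (adjusted p = 1.8e-05). Ndufs4, an accessory subunit of the NADH-oxidizing module, had 11.4, 11.6 and 11.3 in the epithelium against 10.5, 10.3 and 10.5 in the mesenchyme, a difference of 1.00 ± 0.23 (adjusted p = 0.00039). Ndufb10, of the membrane arm, had 11.7, 12.4 and 11.8 in the epithelium against 11.0, 10.9 and 11.0 in the mesenchyme, also 1.00 ± 0.23 (adjusted p = 0.00061). In these 3 genes no epithelial array overlapped a mesenchymal one. Ndufs4 and Ndufb10 lie exactly at the 2-fold limit and fell below it without epithelium B, without mesenchyme B and with either spike-in centring, as did Ndufs4 with its probe sets averaged (0.33). The 3 other probe sets of Ndufs4 were dimmer and differed by -0.17 to 0.57.

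Just inside the limit of 1 stood Ndufs4, Ndufb10, Cox5a and Atp5c1, each at 1.00 with values rounded to 0.1. Just outside stood Ndufs7 at 0.93 and Sdha at 0.90, each with another probe set above the limit. Of the 6 measured core subunits that carry or adjoin the flavin and iron-sulfur clusters (Ndufv1, Ndufv2, Ndufs1, Ndufs3, Ndufs7 and Ndufs8), 5 were higher in the epithelium without the fold minimum and none at 2-fold, with a median of 0.68. Among them Ndufs7 differed by 0.93 ± 0.23 (adjusted p = 0.001), Ndufv1 by 0.80 ± 0.24 (adjusted p = 0.0057) and Ndufs1 by 0.77 ± 0.23 (adjusted p = 0.0072), while Ndufv2 differed by 0.40 (adjusted p = 0.18). Ndufs8 passed by its brightest probe set (0.57, adjusted p = 0.043), but its probe sets disagreed. A dimmer one was higher in the mesenchyme without the fold minimum (-0.60, adjusted p = 0.036). Of the 11 Ndufb genes, which encode accessory subunits of the membrane arm, 3 passed in the epithelium without the fold minimum, with a median of 0.27. The shares, 83.3% of the core subunits and 27.3% of the Ndufb genes, stand beside 13.8% of all genes. Among the 622 genes whose level reached the lower quartile of the members, the share was 32.5%. The groups of core subunits and Ndufb genes were made after the values were seen, and the difference between them was not tested. Ndufb6 and Ndufa1 had differences of -0.20 and -0.07, and their arrays overlapped.

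Complex IV had the lowest median, 0.23 over 15 genes, and the largest spread of single genes. Without the fold minimum, 5 of the 15 (33.3%) were higher in the epithelium and 1 (6.67%) in the mesenchyme. At 2-fold, 2 (13.3%) and 1 were called, against 8.19% and 15.9% of all genes. Complex IV holds Cox7a1, with the largest difference of all members in the epithelium, and Cox6b2, higher in the mesenchyme. A group made after the values were seen holds its 9 genes other than the tissue-restricted isoforms. Of these, 4 (44.4%) passed without the fold minimum in the epithelium and none in the mesenchyme, with a median of 0.53. Without the fold minimum, the shares of all genes were 13.8% and 27.4%, and those of the 622 genes at the members' level 32.5% and 18.6%. Cox5a, which encodes a subunit on the matrix side, had 13.8, 14.1 and 13.9 in the epithelium against 13.0, 12.9 and 12.9 in the mesenchyme, a difference of 1.00 ± 0.23 (adjusted p = 0.00037). The tissues did not overlap. Cox5a fell below 2-fold without epithelium B, without mesenchyme B and without mesenchyme C. It also did so after quantile normalization (0.92) and cyclic loess (0.94), and with spike-in centring (0.74, adjusted p = 0.10). Of its dimmer probe sets, 1 differed by 1.30 and was called in the epithelium (adjusted p = 1.9e-05). Another differed by 0.83 and passed without the fold minimum (adjusted p = 0.004). Cox4i1, the common form of the largest nuclear-encoded subunit, which the symbol rule takes no probe set for, differed by 0.63 ± 0.23 (adjusted p = 0.022), and its isoform Cox4i2 by 0.00.

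Cox7a1, the heart and muscle isoform of a small membrane subunit, had 9.4, 9.7 and 9.3 in the epithelium against 6.9, 7.2 and 7.7 in the mesenchyme. The lowest epithelial array was 1.6 log2 units above the highest mesenchymal one, and the difference was 2.20 ± 0.24 (4.59-fold, adjusted p = 7.6e-10). The widely expressed partner Cox7a2 had 13.9, 14.1 and 14.0 in the epithelium against 13.5, 13.4 and 13.5 in the mesenchyme. Its difference of 0.53 (95% interval 0.08 to 0.99) missed the threshold (adjusted p = 0.054), although the arrays did not overlap. The other probe set of Cox7a2 differed by 0.80 and passed without the fold minimum (adjusted p = 0.0045). Of 8 markers of striated muscle, 5 were called at 2-fold in the mesenchyme, 1 (Acta1, by 0.90, adjusted p = 0.005) was higher in the epithelium without the fold minimum, and 2 did not pass. The mean log2 level of the list lay between 7.54 and 7.79 in the epithelium and between 9.53 and 9.70 in the mesenchyme. Their part in the result was not tested. Of 4 markers of brown fat, where Cox7a1 is also known to be expressed, Prdm16 was higher in the epithelium by 2.40. Ucp1, Cidea and Adipoq differed by 0.10, -0.27 and -0.40 and were not called.

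Cox6b2, the testis isoform of a subunit on the intermembrane side, had 8.4, 8.7 and 8.3 in the epithelium against 10.0, 10.0 and 10.1 in the mesenchyme. The groups were separated by 1.3 log2 units, with a difference of -1.57 ± 0.23 (2.96-fold higher in mesenchyme, adjusted p = 3.5e-07). The common form Cox6b1 ran the other way, with 13.7, 13.9 and 13.9 in the epithelium against 13.0, 13.1 and 13.1 in the mesenchyme and a difference of 0.77 ± 0.22 (adjusted p = 0.0054). Cox6b1 passed without the fold minimum, though its other probe set did not (0.53, adjusted p = 0.064), and Cox6b2 at 2-fold. They are measured by separate probe sets, so their levels are not compared with each other.

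Ndufa4l2, a paralogue of Ndufa4 known to be induced in low oxygen, had the largest difference of all members. Its log2 levels were 8.8, 9.0 and 8.8 in the epithelium and 11.3 on each of the 3 mesenchymal arrays, a difference of -2.43 ± 0.22 (5.40-fold higher in mesenchyme, adjusted p = 1.2e-11). Ndufa4 itself had 13.2, 13.4 and 13.1 in the epithelium against 12.8, 12.6 and 12.8 in the mesenchyme, a difference of 0.50 (adjusted p = 0.076). Ndufa4 carries a complex I symbol but is now regarded as a complex IV subunit. If both genes are counted with complex IV, complex I has 0 genes higher in the mesenchyme and complex IV has 2. The mesenchymal arrays also carried the markers of fibroblasts (5 of 5 called in the mesenchyme, mean log2 level of the list 6.78 to 7.20 in the epithelium and 13.7 to 13.8 in the mesenchyme) and of smooth muscle (5 of 5, 7.72 to 8.28 and 13.6 to 13.8). They likewise carried those of endothelium (5 of 5, 7.60 to 8.04 and 11.4 to 11.6). Other lists were called in part in the mesenchyme, with 3 of 4 immune, 2 of 3 neuron and glia and 1 of 2 erythroid markers. None of these was called in the epithelium, though 1 immune marker was higher on every epithelial array, by 0.40. Which of these cells carry Ndufa4l2 or Cox6b2 was not tested, and in bulk tissue fewer cells of a type and less RNA per cell cannot be told apart.

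The other restricted isoforms did not pass. Cox6a2, the muscle isoform, had 8.8, 9.0 and 9.1 in the epithelium against 8.6, 8.6 and 9.0 in the mesenchyme (difference 0.23, adjusted p = 0.45). Its common partner Cox6a1 had 14.1, 14.4 and 14.3 against 13.8, 13.7 and 13.7 (difference 0.53, adjusted p = 0.056), and its other probe set differed by 0.90 and passed without the fold minimum (adjusted p = 0.0013). Cox8b, another muscle isoform, had 7.7, 8.4 and 8.1 against 8.4, 8.3 and 8.9, with a difference of -0.47 (95% interval -0.96 to 0.02). These arrays overlapped for both muscle isoforms and not for Cox6a1.

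The testis isoform Cox8c had 10.5, 11.1 and 10.8 in the epithelium against 10.9, 10.7 and 10.8 in the mesenchyme, with a difference of 0.00 (95% interval -0.47 to 0.47). The common form Cox8a had 13.5, 13.8 and 13.5 against 13.5, 13.5 and 13.4 (difference 0.13, adjusted p = 0.69). An equally bright probe set of Cox8a differed by 0.53, with no overlap of the arrays (adjusted p = 0.06). Cox7b2, also known from testis, lay near the lowest values of the arrays, with 6.0, 5.8 and 5.8 against 5.7, 6.0 and 5.6 (difference 0.10, adjusted p = 0.77). The deposited values carried no detection calls, so whether such low levels exceed background was not given.

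**Figure D3:**
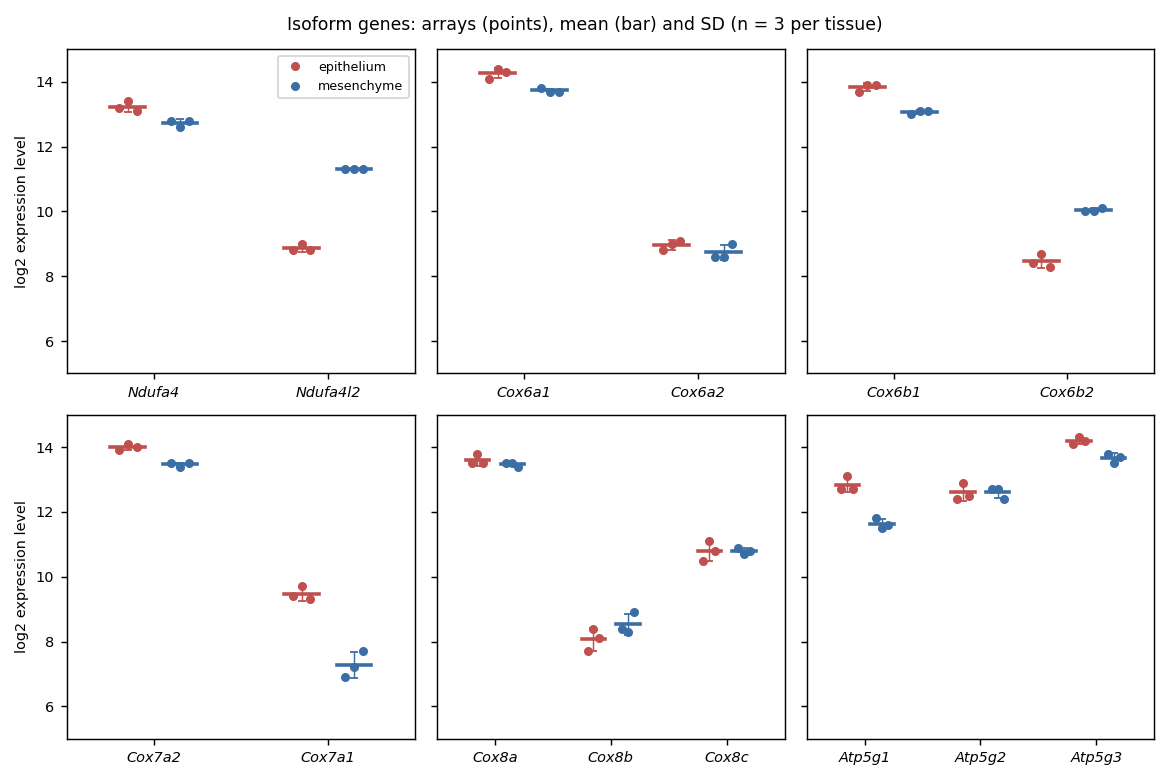
Log2 level (y axis) of isoform genes in the 3 epithelial (red) and 3 mesenchymal (blue) arrays, with the mean and SD of each tissue. Cox7a1 is higher in epithelium, Ndufa4l2 and Cox6b2 are higher in mesenchyme, and the points of Cox8c and Atp5g2 overlap; levels are comparable between tissues, not between genes.

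In complex V, 7 of 17 genes passed without the fold minimum and 3 at 2-fold, in each case in the epithelium, with a median difference of 0.53. These shares, 41.2% and 17.6%, stand beside 13.8% and 8.19% of all genes. Among the 622 genes whose level reached the lower quartile of the members, they were 32.5% and 19.1%. The 3 Atp5g genes encode the same mature subunit c, which forms the rotor ring, and 1 of them passed the test. Atp5g1 had 12.7, 13.1 and 12.7 in the epithelium against 11.8, 11.5 and 11.6 in the mesenchyme, a difference of 1.20 ± 0.23 (adjusted p = 4.1e-05). Atp5g2 had 12.4, 12.9 and 12.5 against 12.7, 12.7 and 12.4, a difference of 0.00 (95% interval -0.47 to 0.47). Atp5g3 had 14.1, 14.3 and 14.2 against 13.8, 13.5 and 13.7, a difference of 0.53 (adjusted p = 0.056). The intervals of Atp5g1 (0.74 to 1.66) and Atp5g2 do not overlap, while the difference between the 3 genes was not tested. The second probe set of Atp5g1 was dim, at 5.63 in the epithelium, and differed by -0.50. The other 2 probe sets of Atp5g2 differed by -0.57 and -0.27. Atp5g1 fell below 2-fold with spike-in centring (0.94, adjusted p = 0.031). With its probe sets averaged it was 0.35 and did not pass (adjusted p = 0.19).

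Atp5c1, the central stalk of the F1 part, had 13.8, 14.1 and 13.8 in the epithelium against 13.1, 12.8 and 12.8 in the mesenchyme, a difference of 1.00 ± 0.23 (adjusted p = 0.00043). Atp5md, a small subunit of the membrane part, had 12.3, 12.4 and 12.1 against 11.3, 11.1 and 11.3, a difference of 1.03 ± 0.23 (adjusted p = 0.00026). For both genes the tissues did not overlap, and both fell below 2-fold without epithelium B, without mesenchyme B and with either spike-in centring. Atp5c1 also did so without mesenchyme C (0.95), after quantile normalization (0.92) and cyclic loess (0.94), and with its probe sets averaged (0.77). With _x_at and _s_at probe sets avoided, its dimmer other probe set stood for the gene, gave 0.53 and did not pass (adjusted p = 0.073 over genes). Of the catalytic F1 pair, Atp5b differed by 0.53 (adjusted p = 0.058) and Atp5a1 by 0.30 (adjusted p = 0.31), neither of which passed. The other 2 probe sets of Atp5a1 passed without the fold minimum, at 0.57 (as bright, adjusted p = 0.047) and 0.83 (dim, adjusted p = 0.0028). The oligomycin sensitivity subunit Atp5o differed by 0.73 ± 0.23 (adjusted p = 0.0085). Atpif1, the inhibitor of the synthase, which lies outside the symbol rule, differed by 0.70 ± 0.23 (adjusted p = 0.013).

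Of the 79 genes, 31 had 1 probe set, and 14 had probe sets with differences of opposite sign. Cox6c, which falls outside the rule for named genes and was chosen after its values were seen, differed by 0.63 in its brightest probe set (14.03 and 13.40). Its second probe set differed by -1.23 (10.77 and 12.00) and was called in the mesenchyme, so the direction of Cox6c depends on the probe set. Ndufs8 passed in the epithelium by its brightest probe set (0.57), while a dimmer one was higher in the mesenchyme without the fold minimum (-0.60). Ndufb9, Sdha, Uqcr10, Cox5b and Ndufs7 each had a dimmer probe set called in the epithelium, by 1.23, 1.33, 1.77, 1.03 and 1.07, besides a brightest probe set below 2-fold. Further probe sets of Ndufb9 (-0.13), Sdha (-0.10) and Cox5b (-0.07, 0.20 and 0.33) did not pass. Others of Sdha (0.90) and Cox5b (0.77) passed in the epithelium without the fold minimum. A further probe set of Uqcr10 (1.10) was also called at 2-fold in the epithelium. In 6 genes whose brightest probe set did not pass (Atp5a1, Atp5j2, Atp5k, Cox6a1, Cox7a2 and Sdhc), another one was higher in the epithelium without the fold minimum. For Ndufb4 and Cox7c the probe sets with 1 symbol were dim, at 7.47 and 7.87 in the epithelium. Further probe sets of Ndufb4 that name several genes gave 0.60 and 0.47. In all, 9 probe sets named a member together with another gene. They were left out of the counts, and differed by -0.37 to 0.60.

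The counts depend on how the arrays are scaled to each other, since the tissues differ in many genes and their true balance is not known. Equal array medians moved the median of all genes by 0.30 on the log2 scale, centring on cytosolic ribosomal protein genes by 0.32, and centring on the spike-in controls by -0.26. The members moved by the same amounts, so that the median of the 79 genes stayed 0.70 above that of all genes under these 3 scalings and as deposited, against 0.43 after quantile normalization and 0.45 after cyclic loess. With equal medians 27 of the 79 members were called in the epithelium, where 11.8% of all genes were. With spike-in centring 5 of the 79 were, where 6.21% of all genes were. The split over all genes was 1488 higher in epithelium and 2892 in mesenchyme as deposited, 2140 and 2092 with equal medians, 1921 and 2164 after quantile normalization, and 1127 and 3877 with spike-in centring. Mesenchyme B alone carried the low spike-in level. With it left out, the spike-in centring gave 9 members in the epithelium, where 7.87% of all genes were called.

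**Figure D4:**
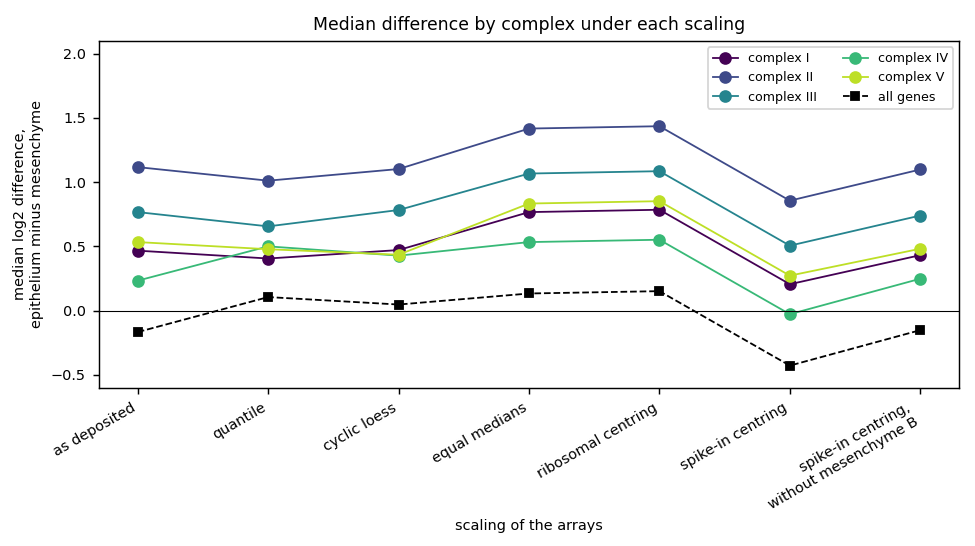
Median log2 difference (y axis) of the genes of each complex and of all genes under each scaling of the arrays (x axis). The line of all genes runs below every complex under each scaling, complex II is highest throughout, and the median of complex IV is 0.23 as deposited and -0.03 with spike-in centring.

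The call of Sdhd, Sdhb, Ndufa6 and Cox7a1 in the epithelium, and of Ndufa4l2 and Cox6b2 in the mesenchyme, held under each of the 17 alternative settings run. Except for Sdhd, each of these genes has 1 probe set. The 2 other ways of choosing probe sets could therefore not change their differences, and agreement between probe sets could not be checked for them. Over these settings the log2 difference ran from 1.14 to 1.72 for Sdhd, 1.07 to 1.65 for Sdhb, 1.01 to 1.58 for Ndufa6 and 1.94 to 2.52 for Cox7a1. It ran from -2.69 to -2.12 for Ndufa4l2 and from -1.83 to -1.25 for Cox6b2. The other 9 called genes missed the call under 1 or more settings.

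Genes that feed or serve the chain are counted here without the fold minimum unless stated, where 13.8% of all genes were higher on the epithelial side and 27.4% on the mesenchymal side. Of 17 electron carrier genes, 9 (52.9%) were higher in the epithelium and none in the mesenchyme, with a median of 0.70. Cycs, which encodes cytochrome c, had 13.6, 14.0 and 13.8 in the epithelium against 12.9, 12.6 and 12.7 in the mesenchyme, a difference of 1.07 ± 0.23 (adjusted p = 0.00019). Etfdh, which passes electrons from fatty acid oxidation to ubiquinone, differed by 1.83 ± 0.24 (adjusted p = 4.4e-08), and Coq9, of ubiquinone synthesis, by 1.57 ± 0.23 (adjusted p = 4.9e-07). Of 17 genes of pyruvate dehydrogenase and the citric acid cycle, 11 (64.7%) were higher in the epithelium and 1 in the mesenchyme, with a median of 0.70. Citrate synthase (Cs) differed by 1.40 ± 0.23 (adjusted p = 3.4e-06), Ogdh, of the oxoglutarate dehydrogenase complex, by 1.63 ± 0.24 (adjusted p = 3.3e-07) and Suclg1, of succinyl-CoA ligase, by 1.30 ± 0.23 (adjusted p = 1.1e-05).

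Of 16 genes of mitochondrial import, porins and chaperones, 7 (43.8%) were higher in the epithelium without the fold minimum and none in the mesenchyme, with a median of 0.47. At 2-fold 1 was called, the inner membrane organizer Immt (1.17). Of 48 assembly factors, 12 (25%) were higher in the epithelium and 3 in the mesenchyme without the fold minimum, with a median of 0.12. At 2-fold 4 (8.33%) were, close to the 8.19% of all genes. The largest were factors of complex IV, namely Cox15 (1.97 ± 0.24, adjusted p = 1.5e-08), which acts in heme A synthesis, the copper chaperone Sco2 (1.73 ± 0.24, adjusted p = 1.1e-07) and Cox19 (1.5 ± 0.23, adjusted p = 1.1e-06). Mitochondrial ribosomal proteins had a median of 0.13, with 13 of 76 (17.1%, near the 13.8% of all genes) higher in the epithelium and 2 in the mesenchyme. Cytosolic ribosomal proteins had a median of -0.30, with 0 of 42 higher in the epithelium (none also at an unadjusted p under 0.05) and 7 (16.7%, against 27.4% of all genes) in the mesenchyme by limma without the fold minimum.

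Of 19 regulators of mitochondrial biogenesis, 6 (31.6%) were higher in the epithelium and 5 (26.3%) in the mesenchyme without the fold minimum, with a median of -0.03. The shares of all genes were 13.8% and 27.4%. At 2-fold, 5 (26.3%) were called in the epithelium and 2 (10.5%) in the mesenchyme, against 8.19% and 15.9% of all genes. Esrra, the estrogen-related receptor alpha, had 11.3, 11.9 and 11.4 in the epithelium against 9.1, 9.1 and 9.3 in the mesenchyme, a difference of 2.37 ± 0.23 (adjusted p = 6.2e-11). Ppara, a nuclear receptor of fatty acid oxidation, had 9.7, 9.8 and 9.9 against 7.5, 7.8 and 8.1, a difference of 2.00 ± 0.23 (adjusted p = 3e-09). The subunits of the GA-binding protein ran the other way. Gabpa had 9.2, 10.2 and 9.2 in the epithelium against 10.8, 10.4 and 10.4 in the mesenchyme, a difference of -1.0 ± 0.25 (adjusted p = 0.0014). Gabpb1 had 8.0, 8.9 and 8.0 against 9.7, 8.8 and 9.4, a difference of -1.0 ± 0.26 (adjusted p = 0.0018). Epithelium B was the highest epithelial array for both and overlapped the mesenchyme for Gabpb1, and equal array medians, which add 0.30, place both below 2-fold. Nrf1, Ppargc1a and Tfam fall outside the rule for named genes, and differed by -0.60 (adjusted p = 0.034), 0.87 (adjusted p = 0.007) and 0.27 (adjusted p = 0.43).

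**Figure D5:**
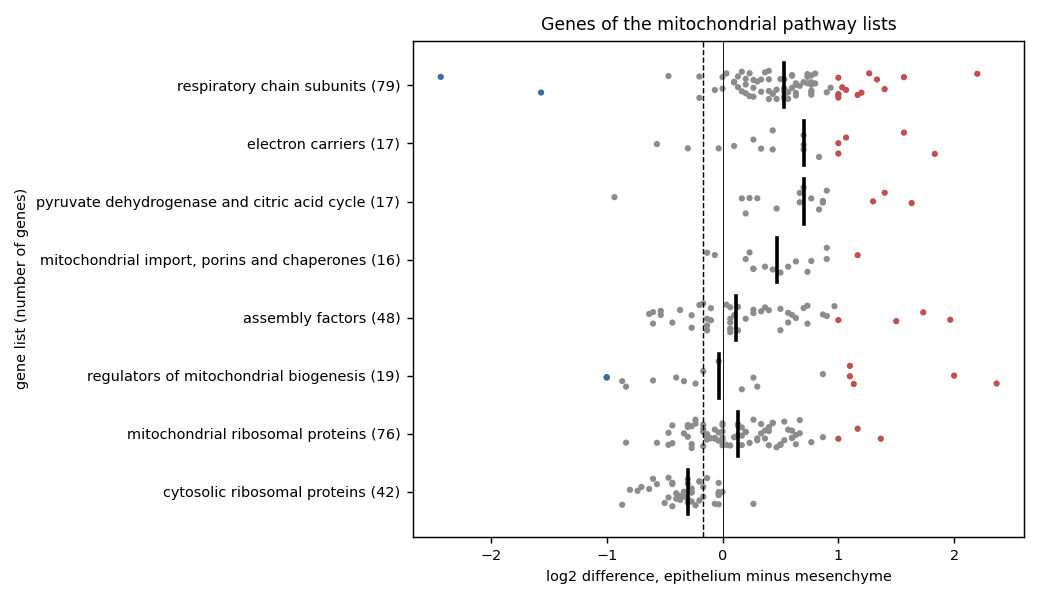
Log2 difference (epithelium minus mesenchyme, x axis) of the genes of each list (rows, number of genes in brackets); red and blue mark genes called 2-fold higher in epithelium and mesenchyme, the black bars are list medians and the dashed line is the median of all genes (-0.17). The bars of respiratory chain subunits, electron carriers and citric acid cycle genes lie at 0.53 to 0.70, and that of cytosolic ribosomal proteins at -0.30.

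The tissues themselves carried their defining markers. The 7 epithelial markers, Vil1, Cdh1 and Epcam among them, were called in the epithelium (mean log2 level of the list 12.9 to 13.3 in the epithelium and 8.63 to 9.49 in the mesenchyme). The 3' to 5' difference of the Gapdh control probe sets was between -0.10 and 0.20 and that of beta-actin between 0.20 and 0.40 over the 6 arrays.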

How the data were processed

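Expression was measured on 6 Affymetrix whole-genome mouse arrays, 3 per tissue. Per the submitters' processing notes, the authors used RMA, and each deposited value is a log2 level of a probe set. Neither its version and settings nor a step between arrays is given in the sources used here. The deposited log2 values were rounded to 0.1, ranged from 4.6 to 15.2 and carried no detection calls. Array medians differed, from 8.1 to 8.7, and with so few arrays precision is limited.

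Of 45101 probe sets, 64 controls were set aside. The platform annotation named 1 gene for 34945, several for 932 and none for 9160 of the other 45037, and old symbols were updated through RefSeq (GRCm38.p6). One limma fit (version 3.58.1, R 4.3.3; lmFit and eBayes, no covariate) covered all 45037, with 4 residual and 31.7 prior degrees of freedom. The brightest probe set (mean of 6 arrays) stood for a gene. Benjamini-Hochberg adjustment ran over 18161 genes, and separately over probe sets. Calls needed an adjusted p under 0.05 and a log2 difference of 1 or more in either direction. The script was tested on simulated data. Since the labels name pools of 3 embryos but not which pools share embryos, p-values refer only to the spread between these selected pools. With 31.7 prior against 4 residual degrees of freedom, the variance used for a gene comes mostly from all probe sets together. It is therefore not the spread of that gene alone.

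The member genes, the pathway lists and the marker lists were chosen with earlier results of these data known. Values in every array are given for the 3 called genes with the largest difference per complex and direction, the 4 succinate dehydrogenase genes, the tissue-restricted isoforms with their common partners, and the 3 Atp5g genes. Other lists name their 3 largest called genes per direction. Alternatives were 5 scalings of the arrays, 2 ways of choosing probe sets, leaving out dim probe sets, eBayes with trend and robust, a replicate block, each array left out, and Ndufa4 with Ndufa4l2 counted in complex IV. Centring on spike-in controls without mesenchyme B was chosen after seeing the data.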

Additional observations from a re-analysis of the deposited data

How the results depend on the processing

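The settings changed 1 choice at a time, except the spike-in centring with mesenchyme B left out. Under quantile normalization complex IV had 1 gene higher in epithelium and a median of 0.50, and under cyclic loess 1 gene. Equal array medians gave 27 member genes higher in epithelium (69 without the fold minimum), 11 of complex I, 6 of complex III and 49 probe sets, with medians of 0.83 for all members, 0.77, 1.42, 1.07, 0.53 and 0.83 for complexes I to V. Centring on ribosomal protein genes gave 27 (68), 11, 6 and 49, with medians of 0.85, 0.78, 1.43, 1.08, 0.55 and 0.85 in the same order. Centring on spike-in controls gave 5 (7), 1 of complex I, 1 of complex III, 1 of complex IV, 0 of complex V, 9 probe sets and 7 called named genes, with medians of 0.27, 0.21, 0.86, 0.51, -0.028 and 0.27, so that the median of complex IV changed sign. With mesenchyme B left out as well, the spike-in centring gave 23 member genes without the fold minimum, 1 of complex I and 1 of complex V. These centrings add 1 constant to every gene, so they move the fold limit and the medians together. Of all genes, 11.8% were called higher in epithelium with equal medians and with ribosomal centring, and 6.21% with spike-in centring. Averaging the probe sets of a gene left 1 gene of complex V. Counting Ndufa4 and Ndufa4l2 with complex IV gave 0 genes of complex I and 2 of complex IV higher in mesenchyme. Avoiding _x_at and _s_at probe sets turned Uqcrq to -0.17. It also turned Ndufa12, at 0.77 by its brightest probe set (adjusted p = 0.0062), to -0.30 by a dim one. Members with a positive difference were then 68 in place of 71.

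With each array left out in turn, the member genes higher in epithelium ran from 7 to 14 (24 to 40 without the fold minimum), the probe sets from 12 to 26 and the called named genes from 9 to 16. By complex they ran from 1 to 4 for I, 2 to 3 for II, 2 to 3 for III, 1 to 2 for IV and 1 to 3 for V. The lowest counts came without epithelium B (7 genes) and without mesenchyme B (8, and 24 without the fold minimum). At 2-fold, 6.97% and 7.77% of all genes were called in the epithelium in these 2 cases. The genes lost without epithelium B were Atp5c1, Atp5md, Cox5a, Ndufb10, Ndufs4 and Uqcrfs1, and without mesenchyme B the first 5 of these. The 2 member genes called higher in mesenchyme were Ndufa4l2 and Cox6b2 under each setting run. With the replicate letter as a block, 13 member genes were higher in epithelium and 26 in place of 37 without the fold minimum. The labels do not say whether the letters mark pools of the same embryos, so the letters were not treated as pairs. The correlations of same-letter deviations were -0.31, -0.15 and 0.12, and that of epithelium B with mesenchyme A was 0.36. Such deviations from a tissue's own mean of 3 arrays also carry the brightness of whole arrays, so they cannot decide the pairing. For changes of count other than those by construction (a constant added, fewer arrays) the cause was not tested. Signal over background could not be judged without detection calls.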
